A study of Mus musculus with 2 samples.

Results

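The genes described here were 8 components of the leukaemia inhibitory factor (LIF)/STAT3 pathway: Lifr, Il6st, Jak1, Stat3, Socs3, Pim1, Pim2 and Pim3. They were chosen by symbol from the 32286 features of the count matrices, and all 8 were found in both libraries. Single-cell RNA sequencing (scRNA-seq) of mouse cells had given 1 library of serum/LIF embryonic stem cells (ESCs, 0 h) and 1 of epiblast-like cells (48h-EpiLCs, 48 h), and no replicates of either. Each library was a mixture of 2 lines labelled as strain ICR. The WT line carried the ROSA mT/mG reporter and so transcribed tdTomato. The Cnot8 KO line was derived from blastocysts of heterozygous parents, carried no reporter and had both Cnot8 alleles mutated by a guide RNA to exon 2. The product of Cnot8 is one of the deadenylases of Ccr4-Not, the complex that trims poly(A) tails and so prepares mRNAs for decay. The ESCs were kept on feeder fibroblasts in medium with serum and LIF, whereas the 48h-EpiLCs were kept on Matrigel in N2B27 with activin A, bFGF and KSR, for which no LIF is listed. Stage, medium, feeders and library therefore cannot be told apart, and neither can the genotype, derivation and sex chromosomes of the lines.

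LIF binds a receptor made of LIFR and the shared signal transducer gp130, which Il6st encodes. The bound receptor activates the tyrosine kinase JAK1, which phosphorylates the transcription factor STAT3, and STAT3 dimers then enter the nucleus and bind DNA. SOCS3 is made in response and blocks the receptor complex, and the PIM kinases are serine/threonine kinases whose genes respond to STAT and other cytokine signals. In mouse ESCs, LIF/STAT3 signalling is known for holding cells in the naïve state.

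The cells used had 1000 or more detected genes, and mitochondrial genes held no more than 10% of their UMIs (unique molecular identifiers). This left 11054 of 13184 barcodes in the ESC library and 9400 of 12427 in the 48h-EpiLC library. A cell was put in the WT line with at least 1 tdTomato UMI and no UMI of the Y-linked genes Ddx3y, Eif2s3y, Kdm5d and Uty, and in the KO line with no tdTomato UMI and at least 2 Y-linked UMIs. This gave 435 WT and 2978 KO cells at 0 h and 368 WT and 2977 KO cells at 48 h, with median depths of 13151, 13368, 15598 and 17628 UMIs, and it left 69.1% and 64.4% of the kept cells in neither line. The libraries shared 41 barcodes. Cnot8 itself stood at 43.1 CPM (UMIs per 1000000 UMIs of the class) in WT and 72.1 CPM in KO ESCs, and at 49.7 and 62.6 CPM in the 48h-EpiLCs, but tags from the 3′ end lie away from exon 2 and so do not check the label. The 6 naïve markers (Zfp42, Klf2, Esrrb, Nanog, Tbx3, Tfcp2l1) summed to 908 and 1264 CPM in WT and KO ESCs and to 108 and 228 CPM in the 48h-EpiLCs. Zfp42 and Klf2 made up most of these sums. Nanog went the other way between the lines, at 84.5 CPM in WT and 56.1 CPM in KO ESCs and at 27.5 and 17.2 CPM in the 48h-EpiLCs. The 5 formative markers (Fgf5, Pou3f1, Otx2, Dnmt3b, Lef1) summed to 378 and 390 CPM against 1195 and 1024 CPM. Dnmt3b and Pou3f1, which made up most of these sums, were higher in KO than in WT ESCs. Lef1 (39.1 against 67.9 CPM), Otx2 (12.4 against 19.2 CPM) and Fgf5 (1.29 against 2.76 CPM) were lower in KO ESCs. Markers of feeder fibroblasts (at least 5 UMIs over at least 3 of 8 genes) were met by 63 cells of the KO and 3 of the WT class at 0 h. None of the 48h-EpiLCs of either line met them. Those of primitive endoderm were met by 79 cells of the KO and 5 of the WT class at 0 h. All these cells were kept in their classes unless an alternative left them out.

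With 1 library a stage there was no test, and the 95% intervals of levels, ratios and shares are exact and cover counting error only. A gene was called higher or lower where the log2 ratio of CPM + 1 passed 1.5-fold, among genes with a mean of at least 5 CPM in the classes compared. Between the stages, 7 of the 8 genes were called in each line. Pim1 and Pim2 were higher in 48h-EpiLCs, Lifr, Il6st, Stat3, Socs3 and Pim3 were lower, and Jak1 was not called. Over all 9242 genes compared in the WT line, 13.3% were called higher and 11.4% lower, and over the 9478 genes of the KO line the shares were 8.55% and 10.1%. The median log2 ratio of the 8 genes was -1.19 in the WT and -1.10 in the KO line, beside 0.03 and -0.02 for all genes compared.

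**Figure D1:**
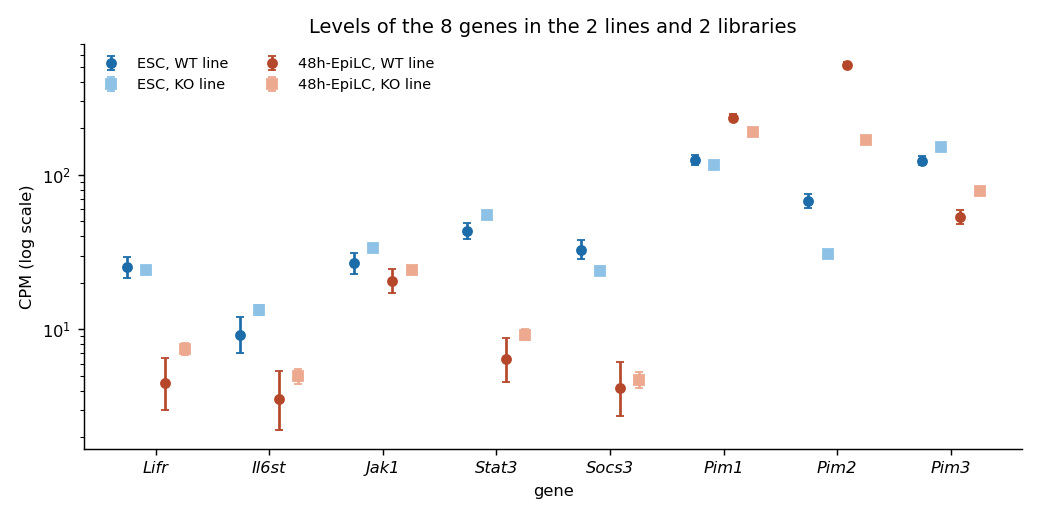
Level of each gene in CPM on a log scale, with circles for the WT and squares for the KO line, blue for ESCs and red for 48h-EpiLCs. Bars are exact Poisson 95% intervals, and in both lines the red points of Lifr, Il6st, Stat3, Socs3 and Pim3 lie below the blue points, while those of Pim1 and Pim2 lie above.

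Both receptor genes were lower in 48h-EpiLCs. Lifr, which encodes the receptor chain that binds LIF and some related cytokines (chr15:7090614-7197489, plus strand, GRCm38), stood at 25.2 CPM (21.4 to 29.5) in WT and 24.2 CPM (22.8 to 25.7) in KO ESCs, and at 4.50 CPM (2.99 to 6.51) in WT and 7.47 CPM (6.79 to 8.20) in KO 48h-EpiLCs. The ESC intervals overlapped, whereas the 48h-EpiLC intervals did not. Lifr was thus 5.59-fold (3.72 to 8.69) lower at 48 h in the WT line and 3.24-fold (2.90 to 3.63) lower in the KO line. Il6st (chr13:112464070-112510086, plus strand) stood at 9.26 CPM (7.01 to 12.0) in WT and 13.4 CPM (12.3 to 14.5) in KO ESCs, and at 3.54 CPM (2.22 to 5.36) and 4.96 CPM (4.41 to 5.56) in the 48h-EpiLCs. It was 2.62-fold (1.58 to 4.50) lower at 48 h in the WT and 2.69-fold (2.34 to 3.11) lower in the KO line. Il6st was read from 22 UMIs in WT and 294 UMIs in KO 48h-EpiLCs, and the WT value is the least precise of this gene.

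Jak1, the kinase bound to gp130 (chr4:101152367-101265282, minus strand), was the gene of the 8 that differed least between the stages. It stood at 26.8 CPM (22.9 to 31.2) in WT and 33.6 CPM (31.9 to 35.4) in KO ESCs and at 20.6 CPM (17.2 to 24.5) and 24.2 CPM (23.0 to 25.5) in the 48h-EpiLCs. Its log2 stage ratio was -0.38 (-0.73 to -0.04) in the WT and -0.47 (-0.58 to -0.37) in the KO line, below the 1.5-fold limit in both. In the 186 cells of the ESC library that met the feeder markers, Jak1 stood at 119 CPM (107 to 131). The 8 feeder markers summed to 42.6 CPM in the KO and 11.7 CPM in the WT class at 0 h. Lum was at 0 in the WT class, but had only 5 UMIs in the KO class, which held 44110356 UMIs in total against 6154790. In the 48h-EpiLCs the marker sum was 7.72 CPM in the WT and 11.3 CPM in the KO line. Without the cells that met markers of another cell type the log2 ratio of CPM + 1 in the KO line was -0.36 instead of -0.46, and with cells thinned to 5000 UMIs that of the WT line was -0.89 instead of -0.37, past the limit.

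Stat3, which encodes the transcription factor of the pathway (chr11:100885098-100939540, minus strand), was lower at 48 h in both lines. It stood at 43.4 CPM (38.3 to 48.9) in WT and 55.0 CPM (52.8 to 57.2) in KO ESCs and at 6.43 CPM (4.59 to 8.76) and 9.26 CPM (8.50 to 10.1) in the 48h-EpiLCs. The difference was 6.75-fold (4.83 to 9.66) in the WT and 5.94-fold (5.41 to 6.53) in the KO line. Only 0.725% of the genes compared in the WT line and 0.475% in the KO line had a lower log2 ratio of CPM + 1. The annotation places Stat5a on the opposite strand over part of Stat3, Raver2 over part of Jak1 and Gm26885 over part of Pim1, and whether counting used the strand was not stated. Stat5a was at 3.95 CPM or less in all 4 classes.

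Socs3, the feedback inhibitor (chr11:117966079-117970047, minus strand), was lower at 48 h by the largest factor of the 8 genes in the WT line, though its interval overlapped that of Stat3. It stood at 32.8 CPM (28.5 to 37.7) in WT and 24.1 CPM (22.6 to 25.6) in KO ESCs and at 4.18 CPM (2.73 to 6.13) and 4.69 CPM (4.15 to 5.27) in the 48h-EpiLCs. The WT value was above the KO value in ESCs, and the 48h-EpiLC intervals overlapped. With at least 2 tdTomato UMIs asked of WT cells, the WT value in ESCs was 17.2 CPM (7.85 to 32.6; 9 UMIs), below the KO value. The value at 48 h was 7.85-fold (5.20 to 12.3) lower in the WT line, with 26 UMIs against 202, and 5.13-fold (4.49 to 5.88) lower in the KO line. Socs3 was also the only gene of the 8 with the core of a STAT binding site, TTCNNNGAA (its own reverse complement, so searched on both strands at once), in the promoter windows of RefSeq on GRCm38.p6, which reach from 250 bases before to 50 after a start site. The window at chr11:117969317-117969616 (minus strand) is shown with this core in capitals, since no other window of the 8 genes holds it.
Socs3 promoter window: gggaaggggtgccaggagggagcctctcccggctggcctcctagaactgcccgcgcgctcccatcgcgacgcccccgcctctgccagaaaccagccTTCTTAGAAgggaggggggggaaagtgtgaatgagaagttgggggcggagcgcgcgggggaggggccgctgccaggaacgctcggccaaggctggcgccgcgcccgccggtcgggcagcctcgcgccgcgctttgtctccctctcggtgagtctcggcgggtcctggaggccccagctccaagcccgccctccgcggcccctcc
The core begins 154 bases before the start site, which itself lies at position -180 from the nearest coding transcript start in GENCODE. The other 9 windows, of the other 7 genes, held none, and 8.3% of all 32851 RefSeq windows held at least 1.

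The 3 PIM kinase genes did not share a direction. Pim1 (chr17:29490753-29496112, plus strand) was higher at 48 h, with 125 CPM (116 to 134) in WT and 117 CPM (114 to 120) in KO ESCs and 235 CPM (223 to 247) and 190 CPM (187 to 194) in the 48h-EpiLCs. It was 1.88-fold (1.72 to 2.05) higher in the WT and 1.63-fold (1.57 to 1.68) higher in the KO line. Pim3 (chr15:88862186-88865726, plus strand) was lower at 48 h, with 124 CPM (115 to 133) in WT and 153 CPM (149 to 157) in KO ESCs and 53.4 CPM (47.8 to 59.4) and 79.2 CPM (77.0 to 81.5) in the 48h-EpiLCs. It was 2.32-fold (2.04 to 2.65) lower in the WT and 1.93-fold (1.86 to 2.00) lower in the KO line. Pim1 and Pim3 thus differed between the stages in opposite directions in both lines.

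Pim2 (chrX:7878262-7883432, plus strand) was higher at 48 h by the largest factor, and it was the gene of the 8 that differed most between the lines under the line rule used here (with at least 2 tdTomato UMIs asked of WT cells the difference in ESCs was gone, as given with the comparison of the lines). It stood at 67.9 CPM (61.6 to 74.8) in WT and 30.8 CPM (29.2 to 32.5) in KO ESCs, and at 518 CPM (500.1 to 536) in WT and 168 CPM (164 to 171) in KO 48h-EpiLCs. No pair of these 4 intervals overlapped. Pim2 was 7.63-fold (6.88 to 8.46) higher at 48 h in the WT and 5.45-fold (5.15 to 5.77) higher in the KO line, and 99.9% of the genes compared had a lower log2 ratio of CPM + 1 in each line. Its promoter window (chrX:7878056-7878355, plus strand) is shown as that of the gene with the largest factor upward, and it has no capitals because it holds no TTCNNNGAA. The windows of Lifr, Il6st, Stat3 and Pim3, which were lower at 48 h, hold none either. Whether the core bears on the direction was not tested.
Pim2 promoter window: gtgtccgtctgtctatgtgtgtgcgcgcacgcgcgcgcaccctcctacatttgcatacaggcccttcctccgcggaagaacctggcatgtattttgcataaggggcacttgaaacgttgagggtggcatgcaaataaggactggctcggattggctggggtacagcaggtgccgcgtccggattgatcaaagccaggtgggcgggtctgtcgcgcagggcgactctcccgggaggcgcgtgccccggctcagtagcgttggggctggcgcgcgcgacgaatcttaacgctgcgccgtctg

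**Figure D2:**
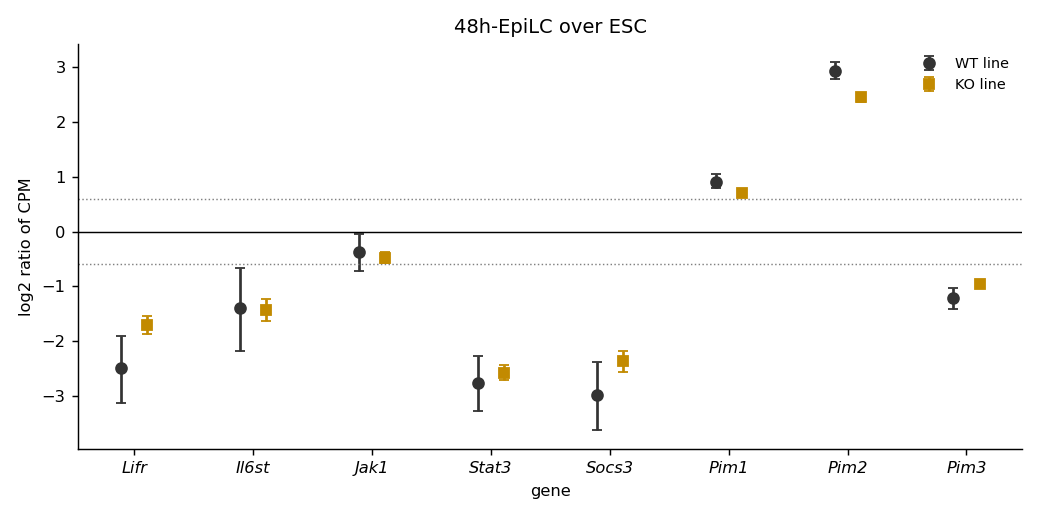
Log2 ratio of CPM of 48h-EpiLCs over ESCs for each gene, with black circles for the WT and yellow squares for the KO line, exact binomial 95% intervals as bars and dotted lines at 1.5-fold. Pim2 and Pim1 lie above the upper line, Jak1 lies between the lines, and the other 5 genes lie below the lower line in both lines of cells.

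The 3′ untranslated regions (UTRs) of the 8 genes also differed in AU-rich elements, which are known as docking sites of proteins that recruit deadenylases to mRNAs. The 7-base form TATTTAT was found 4 times in Pim1, 2 times in Socs3 and 2 times in Pim3, and not in Lifr, Il6st, Jak1, Stat3 or Pim2. At least 1 was found in the 3′ UTRs of 29% of 19934 genes. Among 3′ UTRs of similar length (the shorter at least 0.8 of the longer), the share was 33.9% for Socs3, 32.3% for Pim1, 24.3% for Pim3 and 73.4% for Lifr, whose 3′ UTR of 6320 bases held none. One site each is shown, with TATTTAT in capitals, for Socs3 at chr11:117966143-117966163, Pim1 at chr17:29495693-29495713 and Pim3 at chr15:88865225-88865245, the genes of the 8 that carry the element.
Socs3: gcacataTATTTATatttata
Pim1: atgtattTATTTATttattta
Pim3: ggtctctTATTTATggtgtga
The 4 matches in Pim1 overlap in 1 run, as do the 2 in Socs3, whereas the 2 in Pim3 lie apart. Pim3 and Socs3 were lower at 48 h and Pim1 higher. KO cells had more Pim3 and less Pim1 than WT cells at 48 h, and for Socs3 the ratio of KO over WT was 1.12 (0.75 to 1.75). The part of AU-rich elements in these differences was not tested. The 5-base core ATTTA occurred at 5.19 per kb in Pim3, 3.66 per kb in Pim1, 3.55 per kb in Jak1 and 0.54 per kb in Stat3, beside a median of 1.35 per kb over all genes.

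Between the lines, 1 of the 8 genes was called in ESCs, and 2 of the 6 genes that reached 5 CPM on average were called in 48h-EpiLCs, where Il6st and Socs3 did not reach it. Pim2 was lower in the KO line in both libraries, by 2.21-fold (1.97 to 2.47) at 0 h and 3.09-fold (2.97 to 3.22) at 48 h. Lifr was higher in KO 48h-EpiLCs, by 1.66-fold (1.13 to 2.53). Of all genes compared, 12.4% were called higher and 4.97% lower in KO ESCs, and 8.04% higher and 4.3% lower in KO 48h-EpiLCs. The median log2 ratio of KO over WT was 0.123 for the 8 genes and 0.125 for all genes at 0 h, and 0.345 for the 6 genes and 0.074 for all genes at 48 h.

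The call of Lifr rested on 28 UMIs in the WT line. It was lost with TMM scaling (log2 ratio of CPM + 1 of 0.58), with cells limited to 5% mitochondrial UMIs (0.57), with up to 1 Y-linked UMI allowed in WT cells (0.55) and with cells thinned to 5000 UMIs (0.25), against 0.62 here and a limit of 0.585. In ESCs the Lifr ratio was 0.96 (0.81 to 1.15). Stat3 was higher in the KO line in both libraries without being called, by 1.27-fold (1.12 to 1.44) at 0 h and 1.44-fold (1.04 to 2.04) at 48 h. The same held for Pim3, by 1.23-fold (1.14 to 1.33) and 1.48-fold (1.33 to 1.66). Of all genes compared, 71.4% at 0 h and 87.75% at 48 h had a lower log2 ratio of CPM + 1 than Stat3. For Pim3 these shares were 68.25% and 91.3%, so at 0 h many other genes lay as high or higher. Pim1 was at 0.94 (0.87 to 1.01) of the WT level at 0 h and 0.81 (0.77 to 0.86) at 48 h. Under the line rule used here Socs3 was at 0.73 (0.63 to 0.86) of the WT level at 0 h and at 1.12 (0.75 to 1.75) at 48 h. For Il6st the ratio was 1.44 (1.10 to 1.93) at 0 h and 1.40 (0.91 to 2.27) at 48 h, and for Jak1 it was 1.25 (1.07 to 1.48) and 1.18 (0.98 to 1.42).

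**Figure D3:**
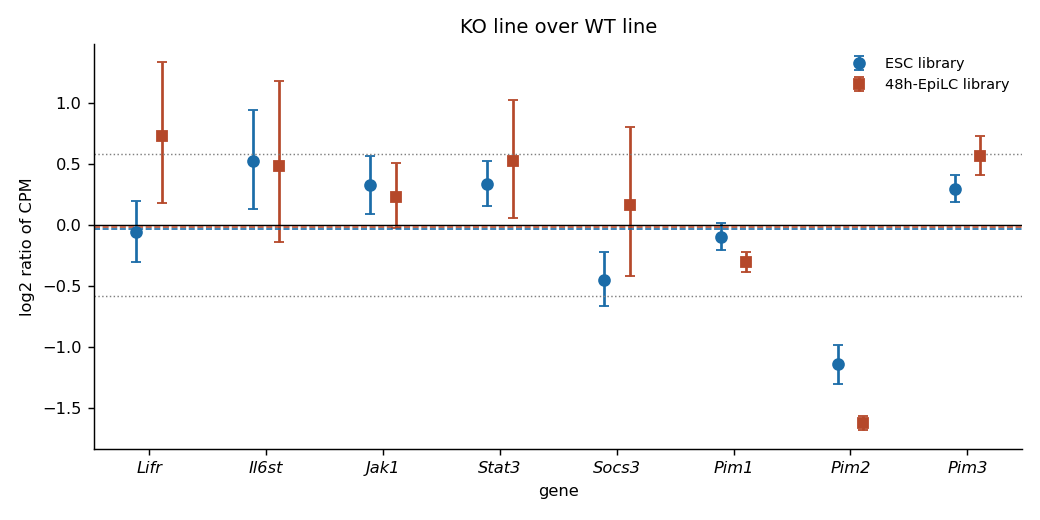
Log2 ratio of CPM of the KO over the WT line for each gene, with blue circles for ESCs and red squares for 48h-EpiLCs, exact binomial 95% intervals as bars, dotted lines at 1.5-fold and dashed lines at the median of X-linked genes on the scale of CPM + 1. Pim2 lies below the lower dotted line in both libraries, at -1.14 and -1.63, while the dashed lines lie at -0.03 and -0.01.

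Pim2 is X-linked and the lines were told apart by Y-linked transcripts, so X-linked genes were set beside it. The median log2 ratio of KO over WT was -0.03 over 300 X-linked and 0.13 over 8955 autosomal genes at 0 h, and -0.01 over 316 X-linked and 0.08 over 9046 autosomal genes at 48 h. Of the X-linked genes, 10 at 0 h and 1 at 48 h had a lower ratio than Pim2. The part of sex-chromosome dosage in the Pim2 difference was not tested. The cells in neither line, a mixture of both lines, had 48.0 CPM of Pim2 (46.6 to 49.5) at 0 h and 381 CPM (377 to 385) at 48 h, between the values of the lines. Where at least 2 tdTomato UMIs were asked of WT cells, 33 ESCs and 24 48h-EpiLCs were left. Pim2 then stood at 30.5 CPM (17.4 to 49.6; 16 UMIs) in WT ESCs, next to 30.8 CPM in KO ESCs, so that the difference at 0 h was gone, and at 561 CPM (494 to 635) in WT 48h-EpiLCs, where the difference remained.

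The cells in neither line also gave the order of the stages for the other genes. From 0 h to 48 h they went from 24.0 to 5.14 CPM of Lifr, from 12.5 to 4.50 CPM of Il6st, from 49.2 to 7.46 CPM of Stat3 and from 31.5 to 5.06 CPM of Socs3. Jak1 went from 31.95 to 24.85 CPM, Pim1 from 128 to 215 CPM and Pim3 from 139.5 to 63.9 CPM. These are other cells of the same 2 libraries, and hence no replicate of the stage difference.

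The stage ratio was compared between the lines as the KO minus the WT log2 ratio of CPM. The interval of this difference excluded 0 for Lifr at 0.79 (0.18 to 1.39), Pim3 at 0.27 (0.08 to 0.46), Pim1 at -0.21 (-0.34 to -0.07) and Pim2 at -0.49 (-0.65 to -0.32). Each of these 4 genes differed less between the stages in the KO line than in the WT line, except that the difference of Pim3 was -0.09 with at least 2 tdTomato UMIs asked of WT cells. For Socs3 the difference was 0.61 (-0.01 to 1.23), for Stat3 0.18 (-0.31 to 0.68), for Jak1 -0.09 (-0.44 to 0.26) and for Il6st -0.04 (-0.78 to 0.70). The intervals of Socs3, Stat3 and Il6st still hold differences as large as that of Pim2. The median over 8988 genes was -0.03 on the CPM + 1 scale, where 97.2% of genes lay below Lifr and 8.26% below Pim2.

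The pattern per cell was read from cells thinned to 5000 UMIs, which left out 1 WT and 23 KO ESCs and 1 WT and 9 KO 48h-EpiLCs that were shallower. Pim2 was detected in 27.4% (23.3 to 31.9) of WT and 12.8% (11.6 to 14.1) of KO ESCs, and in 85.8% (81.8 to 89.2) of WT and 46.4% (44.6 to 48.2) of KO 48h-EpiLCs. With all UMIs these shares were 49.2%, 31.0%, 97.8% and 82.2%. Stat3 was detected in 18.4% (14.9 to 22.4) of WT and 23.2% (21.7 to 24.8) of KO ESCs after thinning, and in 2.73% (1.31 to 4.95) and 4.45% (3.73 to 5.25) of the 48h-EpiLCs, against 43.2%, 51.8%, 9.51% and 16.4% with all UMIs. At least 1 UMI of Lifr, Il6st, Stat3 or Socs3 was found in 42.6% (37.9 to 47.4) of WT and 43.0% (41.2 to 44.8) of KO ESCs, and in 10.9% (7.90 to 14.5) and 11.8% (10.7 to 13.0) of the 48h-EpiLCs, after thinning. No cell type that should lack these transcripts was among the cells, and the level that free RNA gives was not measured.

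**Figure D4:**
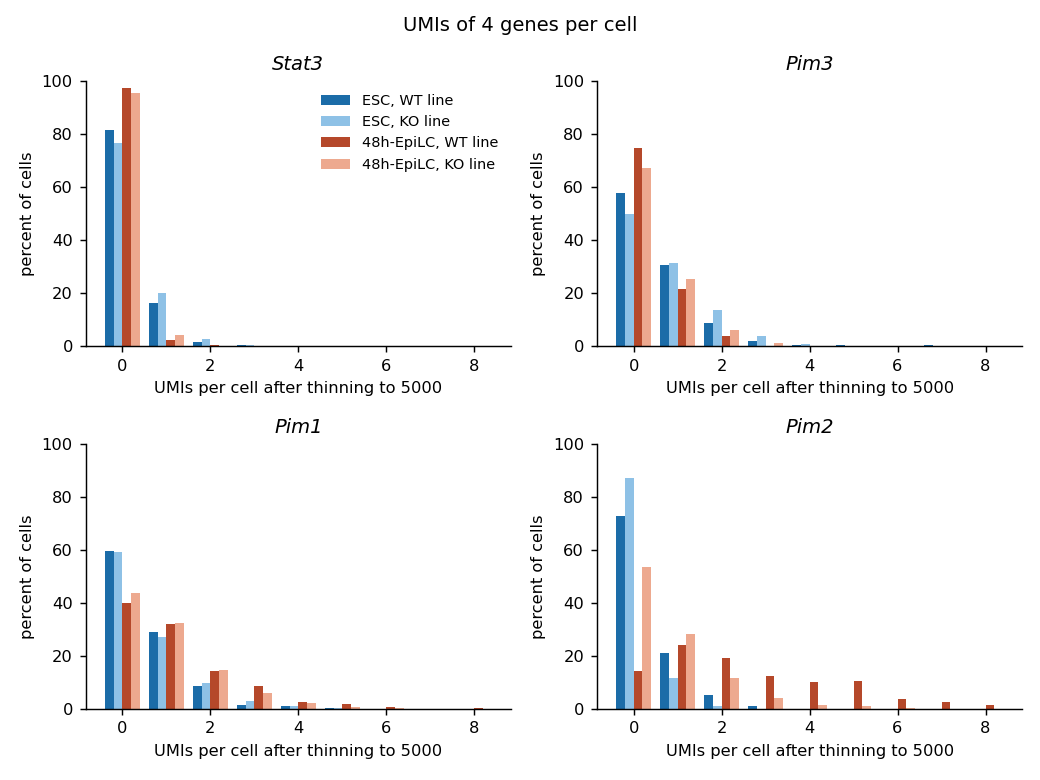
Percent of cells (vertical axis) with 0 to 8 UMIs of Stat3, Pim3, Pim1 or Pim2 (horizontal axis) after each cell was thinned to 5000 UMIs, in blue for ESCs and red for 48h-EpiLCs, darker for the WT line. The Pim2 bars of WT 48h-EpiLCs spread over the whole axis, whereas 53.6% of KO 48h-EpiLCs had no Pim2 UMI.

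At 48 h the variance over the mean of UMIs per cell was largest for Pim2 and Pim1. This ratio is 1 for counting error alone. After thinning it was 1.80 in WT and 1.51 in KO 48h-EpiLCs for Pim2, 1.54 and 1.35 for Pim1 and 0.97 and 1.11 for Pim3. At a like relative spread the ratio grows with the mean, and the means of Pim2 were 2.61 UMIs in WT and 0.76 in KO 48h-EpiLCs. Its order over genes, lines and stages therefore does not separate spread from level. In ESCs the ratio was 1.15 and 1.04 for Pim2, 1.19 and 1.35 for Pim1 and 1.31 and 1.12 for Pim3. For Lifr, Il6st, Jak1, Stat3 and Socs3 it lay between 0.92 and 1.16 in all 4 classes, so their counts per cell were close to counting error at this depth. Their means were at most 0.27 UMIs per cell, where the ratio can show little of any spread between cells. Genes with a like pattern over single ESCs were sought for Pim1 and Pim3, the members with at least 50 CPM in both lines of ESCs, among 2745 genes, and only those among the 20 highest r in both lines were kept, which were 3 for each. For Pim1 they were Ccne1 (r = 0.23 over 435 WT and 0.13 over 2978 KO cells), Cks1b and Rarg, and for Pim3 they were Hmces (0.21 and 0.15), Noct and H2afz, while the highest r of any gene with Pim3 in KO ESCs was 0.19. These correlations are weak, the counts of a cell share its depth and library, and they are given as a description.

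Other components of the pathway were read from lists of ligands, receptors, kinases, inhibitors and target genes. Of 8 ligand genes of the LIF/IL6 family 0 reached the minimum level for a comparison. In the cells of the ESC library with feeder markers Il11 stood at 104 CPM and Lif at 12.5 CPM, whereas in the 4 classes Lif was at 2.09 CPM or less. Of 6 other receptor genes 2 were compared between the stages. Lepr, the leptin receptor, was higher at 48 h in both lines, at 19.3 CPM in WT and 33.8 CPM in KO ESCs and 40.2 and 51.2 CPM in the 48h-EpiLCs. Of 9 other JAK and STAT genes 2 were compared between the stages, and neither was called in either line.

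Of 17 inhibitors and phosphatases 14 were compared between the stages. In the WT line 1 was lower and in the KO line 1 was higher and 1 lower, with medians of 0.01 and -0.23. Pias2, an inhibitor of activated STAT and SUMO ligase, was lower in both, from 90.3 to 40.4 CPM in the WT and from 89.9 to 56.3 CPM in the KO line. Socs1, a relative of Socs3, was higher at 48 h in the KO line, at 23.7 against 12.8 CPM, and stood at 15.9 against 10.6 CPM in the WT line without being called. Socs3 and Socs1 therefore lay on opposite sides at 48 h in the KO line. Between the lines, Ptpn1, a tyrosine phosphatase, was higher in KO ESCs at 76.4 against 44.4 CPM, as were Pias4 at 61.7 against 39.5 CPM and Socs7, and Ptprk was lower in KO 48h-EpiLCs at 12.9 against 20.7 CPM. Socs7 fell short of the level set for naming genes and was named after its value was seen.

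Of 17 other target genes of STAT3 16 were compared. In the WT line 7 were lower and 2 higher at 48 h, and in the KO line 9 were lower and 1 higher, with median log2 ratios of CPM + 1 of -0.48 and -0.79. The 7 lower genes of the WT line (Klf4, Klf5, Tfcp2l1, Gbx2, Bcl3, Junb and Sall4) were lower in the KO line as well. Klf4, a transcription factor of the naïve network, went from 155 to 8.52 CPM in the WT and from 92.0 to 4.94 CPM in the KO line. Tfcp2l1, another naïve transcription factor and one of the naïve markers above, went from 35.1 to 1.93 CPM and from 43.5 to 7.24 CPM. Klf5 went from 181 to 24.6 CPM and from 209.7 to 37.2 CPM, and Bcl3, a partner of NF-kB, went from 25.5 to 2.09 CPM and from 32.6 to 3.49 CPM. Among the genes higher at 48 h were Cebpb at 24.6 against 6.50 CPM and Zfp36 at 21.1 against 11.5 CPM in the WT line, and Gadd45g at 37.9 against 15.6 CPM in the KO line.

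**Figure D5:**
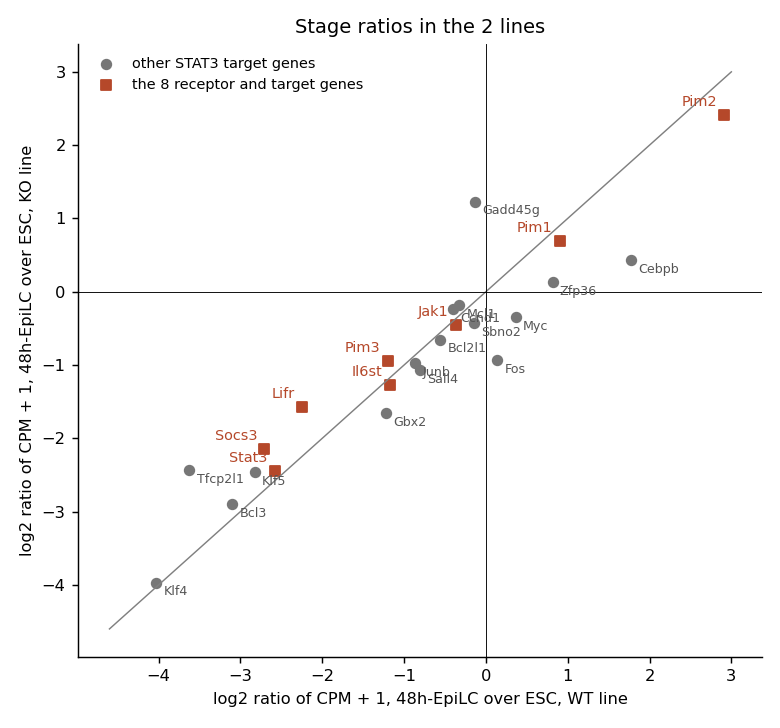
Log2 ratio of CPM + 1 of 48h-EpiLCs over ESCs in the WT line (horizontal axis) and the KO line (vertical axis), with red squares for the 8 genes, grey circles for 16 other STAT3 target genes and a diagonal line at equal ratios. Klf4 lies at the lower left, at -4.03 and -3.97, next to Bcl3, Klf5, Tfcp2l1, Stat3 and Socs3, and Pim2 at the upper right, at 2.91 and 2.41.

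Between the lines, Klf4 and Gadd45g were lower in KO ESCs, at 92.0 against 155 CPM and at 15.6 against 52.5 CPM, and Cebpb was higher at 18.0 against 6.50 CPM. Fos, which encodes a subunit of the AP-1 factor, was lower in KO 48h-EpiLCs at 14.1 against 44.4 CPM, as was Klf4 at 4.94 against 8.52 CPM. The median of these targets was 0.24 beside 0.13 for all genes at 0 h (16 compared) and -0.14 beside 0.07 at 48 h (14 compared). Beside the log2 ratio of CPM of Pim2 of -1.63 at 48 h, that of Fos was -1.65 (-1.85 to -1.45). The genes of this list other than Klf4, Tfcp2l1, Bcl3 and Klf5 at 48 h, and Gadd45g, Klf4 and Fos between the lines, were named after their values were seen.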

How the data were processed

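The data were 2 droplet-based scRNA-seq libraries (Single Cell 3′, v2 kit), 1 per stage. The deposited values were UMI counts per gene and barcode, the output of Cell Ranger 3.0.2 as run by the authors on mm10 with the tdTomato coding sequence added. No normalisation or removal of free RNA is stated, and strand use in counting was not stated. The genotype label of both libraries reads wild type, although their titles name WT and KO cells, the matrices hold no line label, and lines were assigned per cell as the report states. UMIs were summed per line and library and scaled to CPM, with exact Poisson, binomial and Clopper-Pearson 95% intervals (scipy 1.17.1), and differences of stage ratios carry delta-method intervals. Cells are not replicates, and no test was run. Ratios and intervals were tested on simulated counts with known folds. No doublet caller was run, and the 10% of cells with the most UMIs were left out as an alternative. Other alternatives were scaling (TMM, edgeR 4.0.16), thinning, cell filters, line rules, the pseudocount (0.1 CPM) and the minimum level. Positions came from GENCODE M21 (32235 of 32286 features matched) and promoter windows from RefSeq (GRCm38.p6). Named genes were all 8 members and, from each pathway list, up to 4 called genes per comparison with at least 20 CPM in 1 class and the largest ratio. Items withheld from the pathway lists are not reported here, and the lists' counts and medians leave them out. Members, lists and rules were chosen with earlier results of these data known.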

Additional observations from a re-analysis of the deposited data

Results flagged for a closer look

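In the wider pathway 3 genes had ratios of opposite sign in the 2 lines or the 2 libraries, with counting intervals off 0 on both sides. The log2 ratio of 48h-EpiLC over ESC of Cntfr, the CNTF receptor, was 0.395 in the WT line and -0.162 in the KO line. That of Myc was 0.378 in the WT line and -0.356 in the KO line. The log2 ratio of KO over WT of Zfp36, which encodes a protein that binds AU-rich elements, was 0.450 in ESCs and -0.276 in 48h-EpiLCs. The difference was not tested in any of the 3, since there was 1 library a stage. None of these 6 ratios passed 1.5-fold. None of the 8 receptor and target genes met this condition.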

How the results depend on the processing

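The number of the 8 genes called between the stages was 7 in the KO line under all 12 alternatives and 6 to 8 in the WT line. The alternative rules for WT cells left the KO cells as they were, and the rule for KO cells left the WT cells as they were, so these could not change the count of the other line. Between the lines in ESCs it was 2 instead of 1 with cells thinned to 5000 UMIs and with at least 2 tdTomato UMIs asked of WT cells, where Socs3 joined Pim2 (-0.686) and where Il6st and Stat3 took its place (0.734 and 1.015). With the latter rule Socs3 was at 0.464 instead of -0.433, from 9 UMIs in WT cells. In 48h-EpiLCs the number called was 1 instead of 2 with TMM scaling, with thinning and with at most 5% mitochondrial UMIs, where Lifr was lost. Stat3 took the place of Lifr with 1 Y-linked UMI allowed in WT cells (0.609) and with at least 2 tdTomato UMIs (1.665). In the latter case Lifr was at 1.389, and both genes had 1 UMI in WT cells. Lifr was not called there because its mean level fell below the minimum of 5 CPM. Without the 10% of cells with the most UMIs the number called was 3, with Pim3 (0.667) added. Il6st lost its stage call in the WT line (-0.163, from 4 and 3 UMIs) with at least 2 tdTomato UMIs. Of 384 log2 ratios of the 8 genes under the alternatives, 353 differed from the reported value by no more than the counting error of that reported value. The other sign was found for 10. The alternatives use UMIs of the same 2 libraries, so this error serves only as a yardstick of size. Some of the 353 could not move. The minimum level does not enter a ratio, which fixed 32 of them, and a line rule for 1 line leaves the stage ratios of the other line unchanged. A called ratio crossed 0 once, though only to about no difference: Pim2 in KO over WT ESCs was 0.011 with at least 2 tdTomato UMIs, which left 33 WT cells. The KO minus WT stage ratio of Lifr ranged from 0.264 to 1.980, that of Pim2 from -1.755 to -0.435 and that of Pim1 from -0.380 to -0.120, and that of Pim3 ranged from 0.328 down to -0.086, the only one of these 4 to turn sign (with at least 2 tdTomato UMIs). No paired analysis was possible because there was 1 library a stage. Depth limits Lifr, Il6st, Stat3 and Socs3 most, with 22 to 40 UMIs each in WT 48h-EpiLCs.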
